A study of Homo sapiens with 13 samples.

Results

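Artificial enhancers that carried 1 copy each of 2 different transcription factor motifs were compared with the array that held the same motifs in the reverse order. An array is written in the order of its name, so that FOXO_NFKB has FOXO as the first and NFKB as the last motif, and NFKB_FOXO is its swapped mate. A swapped design is such a pair of arrays with the same flanking context in the same library. The 8 motifs (NFKB, IRF, PU1, FOXO, MEF2, RUNX3, MYC and CTCF) form 28 pairs, and with 3 flanking contexts this gave 84 swapped designs, or 168 arrays, in each of 3 libraries. They were chosen by name alone, and all of them had enough barcodes to be used. In all, 542 named constructs were measured in the episomal library with 5 bp between motifs, 442 in the episomal library with 10 bp, and 530 in the integrated library, of which 513 had the minimum of 3 barcodes. The labels do not say which end of an array lies nearer the promoter, so order is given here by name only.

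An enhancer is a stretch of DNA on which several transcription factors bind and raise transcription from a promoter. A model in which each factor adds its own part, whatever its position, gives no difference between orders. Factors that must meet in a fixed arrangement can give one, and so can parts that depend on position. An order difference alone does not tell these apart. Some pairs of factors are known to bind composite sites with a set orientation and distance. PU1, an ETS family factor of B cells and myeloid cells, and IRF factors of immune cells form such a pair. NFKB is the inducible factor of inflammatory and B cell receptor signalling, FOXO factors act in B cell development and survival, and RUNX3 belongs to the RUNX family of blood cell regulators. MEF2 factors act downstream of B cell receptor and calcium signalling, MYC binds E-box sites of growth genes, and CTCF is the insulator protein that anchors chromatin loops.

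The assay was STARR-seq, in which an active enhancer raises its own abundance in reporter mRNA, read here through barcodes. The cells were MEC1, a cell line from chronic lymphocytic leukaemia, which is a B cell cancer, labelled wild type and given no treatment. The tables hold reporter barcodes only, so the identity of the cells could not be checked by marker genes. For each episomal library, duplicate transfections gave 2 mRNA libraries from RNA taken after 24 h, set against 1 plasmid DNA library. For the integrated library, the 5 bp arrays were put into a landing pad by CRE-mediated cassette exchange in cells sorted for loss of GFP. RNA and genomic DNA of these cells gave 3 mRNA and 3 genomic DNA samples, and nothing in the labels says that they came from separate cultures.

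The episomal libraries held between 3850658 and 4563359 reads. A member array was read through 35 to 824 barcodes in the 5 bp library (median 409.5), 120 to 979 in the 10 bp library (median 504) and 6 to 52 in the integrated library (median 27). Activity is the log2 of an array's share of the mRNA reads over its share of the plasmid reads. In the integrated library it is the log2 of mRNA over genomic DNA of the same replicate number, both in RPM (reads scaled to a common library size). Of the 168 member arrays, 115 at 5 bp, 90 at 10 bp and 78 in the integrated library were more active than the construct named rd of the same context, which was taken to hold no motif. An order difference is the activity of A_B minus that of B_A on the log2 scale, with A before B in the alphabet. Library scaling cancels in this difference, though not in the activities. Episomal differences were fitted with edgeR's quasi-likelihood test over the 6 episomal libraries, and adjusted p-values (Benjamini-Hochberg over the 84 designs) under 0.05 passed. The mRNA libraries of a spacer share 1 plasmid DNA library, so the errors do not include the spread between plasmid DNA libraries.

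With 5 bp between motifs, swapping the order of the motifs changed activity in most designs, and by a small amount. Of 84 designs, 64 passed the test (76.2%), with A_B higher in 28 and B_A higher in 36. Longer arrays did not enter the test, so these designs are all that did and 76.2% is their own share. The median size of the difference was 0.28 log2 units, or 1.22-fold, and the range ran from -0.85 to 0.97. None reached 2-fold and 34 were under 1.2-fold. Against a 1.2-fold difference as the null value, 33 designs passed, and DESeq2 called 42 with the same design. The difference had the same sign in both mRNA libraries in 79 designs, and its median SD between them was 0.04.

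The size of an order difference can be set beside other changes to the same arrays. Moving an array from one context to another changed its 5 bp activity by a median of 0.27 (168 differences), beside 0.29 for swapping its motifs, computed from the same activities. Taking another motif pair in the same context changed it by a median of 1.22 (1134 differences). Which motifs an array held thus moved activity further than their order, while the medians for order and for context lay close together. In the 10 bp library the median for order was 0.22, below 0.42 for context and 1.32 for another motif pair. These medians are descriptions with no test.

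In the 5 bp library some motif pairs kept one direction in all contexts. Of 28 pairs, 13 had one sign in all 3 contexts, and 8 of these passed the test in each context. They were FOXO_NFKB, FOXO_PU1, FOXO_RUNX3, IRF_NFKB, MEF2_PU1, MEF2_RUNX3, MYC_PU1 and NFKB_PU1. PU1 was in 4 of them, and each time the array with PU1 as the first motif was the more active. FOXO (FOXO_NFKB, FOXO_PU1 and FOXO_RUNX3) and NFKB (FOXO_NFKB, IRF_NFKB and NFKB_PU1) were in nearly as many. Each motif is in 21 of the 84 designs, so the count for PU1 is not read as a trait of PU1.

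MEF2_PU1 had the largest difference over contexts in this library. In context 3 MEF2_PU1 had activities of -0.40 and -0.31 in the 2 mRNA libraries, beside 0.42 and 0.56 for PU1_MEF2. Both values with PU1 first lay above both with MEF2 first, and the fitted difference was -0.85 (SE 0.07, adjusted p = 8.57e-22 by edgeR), a 1.80-fold gain for PU1 first. In context 2 MEF2_PU1 gave -0.11 and -0.39 and PU1_MEF2 gave 0.59 and 0.56, a difference of -0.82 (SE 0.08). The gap was smaller in context 1, at -0.43 (SE 0.08), with 0.04 and 0.01 for MEF2_PU1 beside 0.43 and 0.47 for PU1_MEF2. In each context the orders did not overlap. Fitted over contexts, the difference was -0.70 (SE 0.14, adjusted p = 0.000981 by edgeR).

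NFKB_PU1 was the most even of these pairs across contexts. Its activities were -0.17 and -0.18 in context 1, -0.17 and -0.32 in context 2, and -0.39 and -0.35 in context 3. PU1_NFKB lay higher in every case, at 0.38 and 0.38, then 0.25 and 0.20, then 0.16 and 0.22. The differences were -0.55, -0.46 and -0.56, and the test of a dependence on context did not pass (adjusted p = 0.416 by edgeR). MYC_PU1, with differences of -0.33, -0.52 and -0.45, did not pass that test either (adjusted p = 0.154 by edgeR). Its level was lower, with MYC_PU1 between -0.93 and -1.60 and PU1_MYC between -0.65 and -1.17 over contexts and mRNA libraries. FOXO_PU1 differed by -0.57, -0.46 and -0.26. In context 1, where its gap was widest, FOXO_PU1 was at -0.27 and -0.29 and PU1_FOXO at 0.27 and 0.31.

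The other partners of PU1 did not share this direction. IRF_PU1 turned with context, at -0.17 in context 1, 0.62 in context 2 and -0.50 in context 3, and each passed the test. CTCF_PU1 was more active with CTCF first, at 0.51 and 0.44 in contexts 2 and 3, and at 0.05 in context 1, which did not pass. PU1_RUNX3 was the pair closest to no difference over contexts (-0.01, SE 0.11), but this mean joined 0.29 in context 1, -0.02 in context 2 and -0.31 in context 3, the outer 2 of which passed. Over its 21 designs, PU1 in first position was higher in 15, all of which passed, and 4 passed the other way. The mean difference of first minus last was 0.25 ± 0.03 (SD, n = 2 mRNA libraries).

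Among pairs without PU1, FOXO_NFKB had the largest 5 bp difference over contexts, with more activity when NFKB came first. FOXO_NFKB had 0.47 and 0.47 in context 1, 0.35 and 0.37 in context 2, and 0.14 and 0.21 in context 3. NFKB_FOXO had 1.19 and 1.22, 0.96 and 0.92, and 0.68 and 0.72. The orders were apart in each context, with differences of -0.74 (SE 0.05), -0.58 (SE 0.05) and -0.52 (SE 0.05), or 1.66-fold, 1.49-fold and 1.44-fold. With IRF as the partner NFKB gave more activity in last position. IRF_NFKB exceeded NFKB_IRF by 0.23, 0.57 and 0.10, the last of which passed narrowly (adjusted p = 0.0484 by edgeR). In context 2, IRF_NFKB had 0.65 and 0.67 and NFKB_IRF had 0.10 and 0.07.

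RUNX3 arrays differed by partner. FOXO_RUNX3 was higher than RUNX3_FOXO by 0.75, 0.13 and 0.28, and in context 1 the values were 0.29 and 0.26 beside -0.50 and -0.45. MEF2_RUNX3 was lower than RUNX3_MEF2, with differences of -0.31, -0.51 and -0.37 in contexts 1, 2 and 3. MYC_RUNX3 in context 1 gave the largest order difference of the 5 bp library. MYC_RUNX3 had activities of -0.37 and -0.38 there, and RUNX3_MYC had -1.32 and -1.37, a difference of 0.97 (SE 0.06, adjusted p = 3.12e-37 by edgeR) or 1.96-fold, over 791 and 502 barcodes. For comparison, the construct without a motif had -1.25 in context 1, so that RUNX3_MYC lay near it and MYC_RUNX3 above it. The same swap gave 0.43 (SE 0.06) in context 2 and -0.01 (SE 0.05) in context 3, where MYC_RUNX3 had -0.96 and -0.92 and RUNX3_MYC had -0.95 and -0.92.

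The 2 least active member arrays at 5 bp, CTCF_MEF2 in context 3 and MYC_CTCF in context 1, held CTCF. Of 21 designs with CTCF, 10 passed, and of 63 without it, 54 passed. CTCF_MYC in context 1 had -2.05 and -1.91 beside -2.90 and -2.83 for MYC_CTCF, a difference of 0.88 (SE 0.12) over 114 and 107 barcodes. CTCF_MEF2 in context 1 had -2.00 and -1.75 beside -2.68 and -2.61 for MEF2_CTCF, a difference of 0.77 (SE 0.14) over 35 and 90 barcodes. Both turned when single barcodes were left out. Without the barcode with most mRNA reads in each array, the differences became -0.10 and -0.11, and the medians over barcodes differed by 0.00 and -0.03. Every listed episomal barcode has at least 1 read in each library. In arrays with CTCF a median of 20.2% of barcodes stood at 1 read in both mRNA libraries, beside 2.04% in the other member arrays, which is the lowest value a listed barcode can have.

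In 23 of 28 pairs (82.1%) the 5 bp order difference depended on context (edgeR F test). In 11 pairs, designs passed with one sign in one context and with the other sign in another. IRF_MEF2 was one, at 0.34 and 0.42 in contexts 1 and 2 and -0.62 in context 3. FOXO_IRF was another, at -0.40, -0.62 and 0.27, and NFKB_RUNX3 a further one at 0.40, -0.39 and -0.07. A single context would therefore have given these pairs opposite signs. When the contexts were fitted together, 10 of 28 pairs passed (35.7%), led by MEF2_PU1, FOXO_NFKB (-0.61, SE 0.07), NFKB_PU1 (-0.53, SE 0.10), MYC_RUNX3 (0.46, SE 0.13) and MYC_PU1 (-0.43, SE 0.09). With 1 value per context as the unit, 3 passed by limma, which were MEF2_PU1, FOXO_NFKB and NFKB_PU1 (adjusted p = 0.0458 each). Without 1 mRNA library in turn, 7 to 9 pairs passed in the fit over contexts.

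With 10 bp between motifs, swapping again changed most designs by little, and a few by much. Of 84 designs 59 passed (70.2%), 29 with A_B higher and 30 with B_A higher. The median size was 0.22, or 1.17-fold, 49 were under 1.2-fold, and 2 reached 2-fold. The sizes differed by context, with medians of 0.15 in context 1, 0.41 in context 2 and 0.24 in context 3, and 15, 23 and 21 of 28 designs passed there. At 5 bp the corresponding medians were 0.32, 0.31 and 0.28. Against a 1.2-fold null value 26 designs passed, and DESeq2 called 33.

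The largest order difference of the episomal libraries was CTCF_NFKB in context 2 at 10 bp. CTCF_NFKB had activities of -0.69 and -0.75 over 604 barcodes, and NFKB_CTCF had -3.07 and -3.12 over 236 barcodes. The difference was 2.37 (SE 0.08, adjusted p = 1.1e-69 by edgeR), or 5.19-fold. The medians over barcodes were -0.72 and -2.92. Over listed barcodes, this design also had the most uneven plasmid reads per barcode and barcode number of the 10 bp library. The log2 ratio of CTCF_NFKB to NFKB_CTCF was -0.80 for plasmid reads per barcode and 1.36 for barcode number. Listed barcodes have at least 1 read in each mRNA library, so both ratios can depend on activity itself. Their part in the difference was not tested. The other contexts gave smaller differences. CTCF_NFKB had -2.37 and -2.36 in context 1, beside -2.55 and -2.77 for NFKB_CTCF, a difference of 0.29 (SE 0.08). In context 3 the values were -1.48 and -1.52 beside -1.55 and -1.52, a difference of 0.04 (SE 0.07). With 5 bp the same swap in context 2 gave 0.33. Among the 10 bp arrays of this pair, CTCF_NFKB in context 2 was thus the most active and NFKB_CTCF in context 2 the least. The arrays of contexts 1 and 3 lay between -1.48 and -2.77.

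The other design past 2-fold was IRF_PU1 in context 2. IRF_PU1 had -0.89 and -0.90, and PU1_IRF had 0.08 and 0.18, a difference of -1.02 (SE 0.07, adjusted p = 9.61e-32 by edgeR) or 2.03-fold. At 5 bp this design differed the other way, by 0.62. In the other contexts at 10 bp the pair gave 0.15 and -0.24, both past the threshold, so its sign depended on context with either spacer.

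At 10 bp PU1 first was the more active order with NFKB in all contexts and with MEF2 and MYC in 2 of 3. FOXO_PU1, PU1_RUNX3 and IRF_PU1 (above) passed with both signs, and CTCF_PU1 was more active with CTCF first. NFKB_PU1 in context 2 had -0.58 and -0.46 beside 0.38 and 0.41 for PU1_NFKB, a difference of -0.92 (SE 0.05). Its differences in contexts 1 and 3 were -0.15 (SE 0.05) and -0.44 (SE 0.05), and all 3 passed. MEF2_PU1 in context 2 had -1.35 and -1.24 beside -0.42 and -0.34 for PU1_MEF2, a difference of -0.91 (SE 0.07). It differed by -0.48 in context 3, and in context 1, at 0.11 (SE 0.07), it did not pass (adjusted p = 0.186 by edgeR). FOXO_PU1 differed by -0.27 and -0.26 in contexts 1 and 2 and by 0.27 in context 3. MYC_PU1 differed by -0.22 and -0.23 in contexts 2 and 3, which passed, and by 0.15 in context 1, which did not (adjusted p = 0.0518 by edgeR). CTCF_PU1 differed by 0.73 and 0.26 in contexts 2 and 3, which passed, and by 0.05 in context 1, which did not. PU1_RUNX3 differed by 0.41 in context 2 and -0.14 in context 3, which passed, and by 0.03 in context 1, which did not. Over the 21 designs with PU1, 12 passed with PU1 first higher and 5 the other way, beside 15 and 4 at 5 bp. Their mean was 0.18 ± 0.01 (SD, n = 2 mRNA libraries) for first minus last.

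Of 28 pairs at 10 bp, 11 had one sign in the 3 contexts, and 4 of these passed in each context: FOXO_NFKB, IRF_MYC, IRF_NFKB and NFKB_PU1. IRF_MYC was less active than MYC_IRF, with differences of -0.40, -0.23 and -0.20 in contexts 1, 2 and 3. In context 1 IRF_MYC had -0.23 and -0.35 and MYC_IRF 0.13 and 0.08. FOXO_NFKB and IRF_NFKB are described with the comparison of spacers. CTCF_MEF2 in context 2 completed the 5 largest single designs, at 0.91 (SE 0.09). CTCF_MEF2 was at -2.32 and -2.36 there and MEF2_CTCF at -3.15 and -3.36. The medians over barcodes of this design differed by less, at 0.62. In 10 bp arrays with CTCF a median of 12.1% of barcodes stood at 1 read in both mRNA libraries, beside 1.02% in the other member arrays.

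The 10 bp difference depended on context in 26 of 28 pairs (92.9%, edgeR F test), and in 7 pairs designs passed with both signs. Fitted over contexts, 10 of 28 pairs passed (35.7%). The largest were CTCF_NFKB (0.89, SE 0.29), NFKB_PU1 (-0.50, SE 0.10), MYC_NFKB (0.46, SE 0.13), MEF2_PU1 (-0.43, SE 0.14) and IRF_NFKB (-0.42, SE 0.09), and the pair closest to none was CTCF_MYC (-0.01, SE 0.14). MYC_NFKB was carried by contexts 1 and 3. In context 1 MYC_NFKB had -0.19 and -0.31 and NFKB_MYC -1.03 and -1.18, a difference of 0.86 (SE 0.04). The medians over barcodes differed by 0.81 there. The log2 ratio of plasmid reads per barcode of this design was -0.68, and its part in the difference was not tested. In context 2 the difference was -0.03 (SE 0.05). This count of pairs was not stable: 16 passed without context 1, 4 without context 2, 3 without either 10 bp mRNA library, and 5 and 4 without the first and the second 5 bp mRNA library, which share the estimate of the spread. With 1 value per context as the unit only CTCF_NFKB passed by limma (adjusted p = 0.00542), a pair whose difference lay in context 2. That fit gave every 10 bp pair the same SE (0.23). The wide spread of CTCF_NFKB over contexts thus did not set its p-value, and no direction shared by the contexts is drawn from it.

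The 2 spacers gave different order effects for most designs. The order difference at 10 bp differed from that at 5 bp in 60 of 84 designs (71.4%, edgeR), by a median of 0.30 in size over all designs. DESeq2 called 31 of them, and 34 passed against a 1.2-fold null value. The sign was the same in 46 of 84 designs, or in 16, 13 and 17 of 28 by context. Pearson's r over designs was 0.13, a description over arrays that share motifs and libraries. Of the designs past the threshold, 45 passed with both spacers (45 of 64 at 5 bp and 45 of 59 at 10 bp), 26 with the same sign and 19 with opposite signs. These shares lay near those over all designs, which were 59 of 84 (70.2%) at 10 bp and 64 of 84 (76.2%) at 5 bp. No agreement between the spacers is therefore drawn from the count. Each spacer is a library of its own, so the spacer and the library cannot be told apart.

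FOXO_NFKB turned over between spacers in every context. The arrays with NFKB first were the more active at 5 bp, and those with FOXO first at 10 bp. At 10 bp FOXO_NFKB had 1.01 and 0.89 in context 1, 0.34 and 0.27 in context 2, and 1.02 and 1.06 in context 3. NFKB_FOXO had 0.39 and 0.28, 0.14 and 0.06, and 0.62 and 0.65. The 10 bp differences were therefore 0.61, 0.20 and 0.41, against -0.74, -0.58 and -0.52 at 5 bp. The change between spacers was 1.35 (SE 0.06), 0.78 (SE 0.06) and 0.93 (SE 0.06). With at least 20 plasmid reads per barcode the 10 bp difference in context 2 was -0.0073, and the other contexts kept their sign.

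IRF_NFKB turned over as well, in the opposite direction. At 10 bp IRF_NFKB had 1.32 and 1.28, 1.2 and 1.21, and 1.36 and 1.36 in contexts 1 to 3. NFKB_IRF was higher in each, at 1.54 and 1.5, 1.92 and 1.96, and 1.68 and 1.67, and in context 2 it was the most active member array of that library. The differences were -0.22, -0.73 and -0.31, and the change from 5 bp was -0.45, -1.31 and -0.41 (SE 0.06, 0.07 and 0.06). NFKB_PU1, by contrast, kept its sign in all 6 designs. Its change between spacers passed in context 1 (0.41) and context 2 (-0.46), and not in context 3 (0.13, adjusted p = 0.095 by edgeR). Over contexts, 4 pairs passed with both spacers and the same sign and 2 with opposite signs.

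The position of single motifs held a part of the order differences, smaller at 5 bp than at 10 bp. A model with 1 position term per motif (7 free terms for 84 values) held 19.7% of the sum of squares at 5 bp and 32.1% at 10 bp, where the terms make up 8.33% of the number of values. A term for each pair (28 terms, 33.3% of the values) held 57.1% and 49.6%. The rest lay between contexts of the same pair. MEF2 had means of -0.23 at 5 bp and -0.17 at 10 bp for first minus last, and was higher when first in 5 and 8 of 21 designs. NFKB moved from -0.03 at 5 bp to -0.22 at 10 bp, and FOXO from -0.10 to 0.16. CTCF had means of 0.11 and 0.28 for first minus last. At 5 bp its median was -0.04 and it was higher when first in 10 of 21 designs, so that mean rested on a few designs. At 10 bp the single design CTCF_NFKB in context 2 (2.37) entered the means of both CTCF and NFKB and the sums of squares above. The 10 bp medians were smaller in size, at 0.12 for CTCF and -0.15 for NFKB. The motif with the higher activity alone in the same context was the better first motif in 48 of 84 designs at 5 bp and in 34 at 10 bp.

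The spread between barcodes was of the same order as the smaller differences. The median standard error of an order difference over barcodes was 0.06 at both spacers. Taken as a difference of means over barcodes, 58 designs at 5 bp exceeded 2 such errors, of which 56 had passed the test on summed reads. The other 8 designs that passed did not exceed them, and 7 of these held CTCF. At 10 bp 55 exceeded them, of which 51 had passed, and 8 designs that passed did not. The sign of the medians over barcodes went against the fitted sign in 8 designs in each library, of which 2 in each had passed. With at least 20 plasmid reads per barcode the median size rose to 0.37 at 5 bp and 0.26 at 10 bp. The 2 arrays of a design also differed in the number of listed barcodes and in plasmid reads per listed barcode. Over designs the order difference ran with the log2 ratio of plasmid reads per barcode at r = -0.29 (5 bp) and r = -0.70 (10 bp). Plasmid reads are also the denominator of activity. With the log2 ratio of barcode number, r was 0.37 and 0.33. Listed barcodes have at least 1 read in each mRNA library, so both ratios can depend on activity and are not plasmid abundance alone. The activities of weak arrays are likewise taken over such barcodes only. The part of these ratios and of this limit in the order differences was not tested.

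In the integrated library the swapped arrays differed by more, with far more error. Of 84 designs 28 passed (33.3%; limma on log2(RPM + 0.5), mRNA against genomic DNA), 14 in each direction, so that fold changes are on this scale and understate those of weak arrays. The median size was 1.36 log2 units and 51 designs reached 2-fold, with a range from -6.03 to 6.60. The median SD between replicates was 0.79, and the sign was the same in all 3 replicates in 56 designs. Swapping order, changing context and changing the motif pair all moved activity by a median of 1.36. In this library, then, the median gave no separation of motif order from motif content. In place of 28 designs, 14, 8 and 31 passed without replicate 1, 2 and 3, and 13 passed with the replicate number as a block.

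Single barcodes held much of the integrated mRNA. In 64 of 168 member arrays, 1 barcode gave most of the mRNA RPM, and the median share of the top barcode was 41.6%. Without the top barcode of each array 2 designs passed. FOXO_MYC in context 2 was among the 28, and FOXO_MEF2 in context 3 was not, with a difference that went from 0.64 to 8.18. Of the 28 designs, 21 kept their sign. IRF_PU1 in context 2 shows the extreme. IRF_PU1 had activities of 7.79, 7.97 and 8.02 in the 3 replicates and PU1_IRF had 2.06, 1.27 and 1.93, a difference of 6.17 (SE 0.35, adjusted p = 0.000196 by limma). Of its mRNA, 99.7% came from 1 of 20 barcodes, and without the top barcodes the difference was 0.93 (adjusted p = 0.352 by limma).

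The other large single designs were read in the same way. CTCF_NFKB in context 3 had 1.35, 0.94 and 1.14 beside -4.20, -5.00 and -3.56 for NFKB_CTCF, a difference of 5.40 (SE 0.31) with 93.0% of the CTCF_NFKB mRNA from 1 of 28 barcodes. CTCF_MYC in context 2 had 0.89, 1.14 and 1.17 beside -4.39, -3.32 and -3.82, a difference of 4.91 (SE 0.43). CTCF_PU1 in context 3 had 1.45, 0.92 and 0.89 beside -5.20, -3.21 and -2.00, a difference of 4.56 (SE 0.96) that became -2.37 without the top barcodes. In each the orders were apart in all replicates. Without the top barcodes CTCF_NFKB in context 3 still differed by 3.78 and CTCF_MYC in context 2 by 6.06, but neither passed (adjusted p = 0.352 and 0.277 by limma). FOXO_MYC in context 2 passed in both settings. FOXO_MYC had -5.55, -2.80 and -2.76 and MYC_FOXO had 1.18, 1.76 and 1.49, and the difference of -5.18 (SE 0.70) became -3.76 (adjusted p = 0.017 by limma). In context 3 the same pair differed by 4.45 the other way.

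Over contexts, 8 of 28 pairs passed in the integrated library (28.6%). The largest were IRF_PU1 (3.36, SE 0.56), CTCF_NFKB (3.23, SE 0.86), IRF_MEF2 (-1.82, SE 0.47), FOXO_NFKB (-1.35, SE 0.49) and NFKB_RUNX3 (1.34, SE 0.45), and FOXO_MYC was closest to none (-0.05, SE 1.07). No pair passed with contexts as units, 2 passed without the top barcodes, and 3, 1 and 1 passed without replicate 1, 2 or 3. IRF_PU1 was positive in each context, at 1.57, 6.17 and 2.34. Of 28 pairs 10 had one sign in the 3 contexts, and none of these passed in all of them.

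A measure that does not weight barcodes by their RPM is the share of barcodes with any mRNA. It ran from 3.70% to 100% over the member arrays, with a median of 32.4%, and the arrays of a design differed by a median of 9.47 percentage points. The exact 95% binomial intervals of the orders failed to overlap in 1 of 84 designs, FOXO_NFKB in context 1. There NFKB_FOXO had mRNA in 14 of 14 barcodes (100%, 76.8% to 100%) and FOXO_NFKB in 11 of 27 (40.7%, 22.4% to 61.2%). The intervals cover counting error only. The activities were 1.07, 0.54 and 0.61 for NFKB_FOXO and -0.30, -0.33 and -0.99 for FOXO_NFKB, a difference of -1.28 (SE 0.27, adjusted p = 0.0196 by limma). With the replicate number as a block this call was lost (adjusted p = 0.0942 by limma). The difference in the share with mRNA had the sign of the difference in RPM in 57 of 84 designs.

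The 5 bp order differences of the episomal and the integrated assay shared their sign in 43 of 84 designs, and Pearson's r over designs was 0.13. Of the designs past the threshold, 19 passed in both (19 of 64 episomal and 19 of 28 integrated), 10 with the same sign and 9 with opposite signs. Both shares lay below those over all designs, which were 28 of 84 (33.3%) integrated and 64 of 84 (76.2%) episomal. The tables shared 2664 barcodes of member arrays. Of these, 2635 carried the same name in both, and none was named as the swapped mate. Over the 21 designs with PU1, the mean of PU1 first minus last was 0.25 in the episomal library and -0.88 ± 0.09 (SD, n = 3) in the integrated one. The integrated mean turned to 0.16 without the top barcode of each array, with PU1 first higher in 7 of 21 designs in that setting as in the full one, so no direction is drawn from it.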

How the data were processed

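The motif pairs, lists and tests were chosen with earlier results of these data known. The episomal values are read counts for each barcode with a construct name, as deposited, per the file headers. Reads of unnamed barcodes (16.6% to 18.5%) were left out. The minimum was 5 plasmid reads for a barcode and 5 such barcodes for a construct, whose reads were summed. For the integrated library the authors deposited RPM per barcode (at least 2 in genomic DNA) and plasmid counts, which entered no test. Its RPM values were whole multiples of 1 step per sample (tolerance 0.02 steps), whose inverse gives totals of 8085617 to 12214382, but they were not tested as counts. The tables' 9 other per-sample columns matched no label and stayed unused. The sources used here do not give the read mapping, its versions or the motif sequences.

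Each swapped design was a feature with 1 count per order and library, fitted with edgeR 4.0.16 (R 4.3.3; library as a block, order within spacer). Pairs were also fitted over contexts, with an F test of context dependence. Integrated values used limma 3.58.1 on log2(RPM + 0.5), the genomic DNA as control. Named were, per library, the 5 largest designs past adjusted p 0.05 with one sign in all replicates, pairs past it in all contexts with one sign, the 5 largest pairs over contexts and the pair closest to none; any further design or pair was named after its values were seen. The scripts were tested on simulated data. PCR reads carry no molecular identifiers, so read numbers overstate independent molecules. Alternatives covered tool (DESeq2 1.42.0), minimums, pseudocount, top barcodes, contexts and replicates.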

Additional observations from a re-analysis of the deposited data

Results flagged for a closer look

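The order difference differed between the spacers in 60 of 84 designs, between contexts in 23 of 28 pairs at 5 bp and in 26 of 28 pairs at 10 bp, each by a test of the difference itself (edgeR). For FOXO_NFKB, all designs passed with one sign at 5 bp and with the other at 10 bp, and 10 bp minus 5 bp was 1.35, 0.78 and 0.93 in contexts 1, 2 and 3. IRF_NFKB turned the other way, at -0.45, -1.31 and -0.41. Spacer and library cannot be told apart in these values.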

How the results depend on the processing

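Counts of designs past the threshold fell under DESeq2 to 42 (5 bp), 33 (10 bp) and 31 (between spacers), and against a 1.2-fold null value to 33, 26 and 34. Over contexts at 10 bp, 16 pairs passed without context 1, 4 without context 2, 1 with contexts as units (chosen after seeing the data), and 3 to 5 without 1 mRNA library; at 5 bp 3 passed with contexts as units. The integrated counts were 8 to 31 designs and 1 to 3 pairs without 1 replicate, 2 designs and 2 pairs without the top barcodes, and 0 pairs with contexts as units. The replicate numbers did not pair the integrated samples (r between -0.09 and -0.06 for the same number), and with a replicate block 13 designs and 5 pairs passed. In the episomal libraries the same-numbered mRNA deviations ran at r = -0.23. A replicate block, and a crossed one chosen after seeing the data, kept every count of calls within 1.5 times.

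The median size of the order difference was 0.29 and 0.30 with either 5 bp mRNA library alone and 0.37 with at least 20 plasmid reads. At 10 bp it was 0.22 with mRNA library 1 alone or with medians over barcodes, and 0.26 with at least 20 reads. In the integrated library it was 1.26 and 1.22 with replicate 1 or 2 alone. Signs turned without the top barcodes for CTCF_MYC context 1 (-0.10) and CTCF_MEF2 context 1 (-0.11, and -0.029 with barcode medians) at 5 bp and for CTCF_PU1 context 3 integrated (-2.37), and with 20 reads for FOXO_NFKB context 2 at 10 bp (-0.0073). They also turned for the pairs closest to none: PU1_RUNX3 at 5 bp (0.14 without context 3, -0.043 to 0.022 without 1 mRNA library, 0.012 without top barcodes), CTCF_MYC at 10 bp (0.0026 with at least 1 read, 0.0104 and 0.035 without context 1 or 3, -0.047 to 0.028 without 1 mRNA library) and FOXO_MYC integrated (0.14 without top barcodes). The cause of these changes was not tested. DESeq2 was not run for the dependence on context, nor barcode medians for the integrated library, and a minimum of 5 plasmid reads removed none of its barcodes.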
